A study of Rattus norvegicus with 12 samples.

Results

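The genes described here are 9 members of the mitogen-activated protein (MAP) kinase pathways: the kinases Mapk3, Map2k1, Map2k2, Mapk8 and Mapk9 and the phosphatases Dusp1, Dusp4, Dusp5 and Dusp6. They were found in the array files by gene name, ignoring case and the suffix of predicted genes, among the spots that are not controls. This gave 13 of the 41012 probes and 9 of the 35608 gene names on the array. Expression was measured in the dorsal striatum of 12 male rats with 1 single-colour Agilent array per rat, in 4 groups of 3. Every rat, including those of the reference group, had received 9 µg of 6-OHDA, a toxin of dopamine neurons, in the left substantia nigra, and no array of an unlesioned rat was analysed here. The 6-OHDA group had no further treatment. The HFS group received 5 days of continuous high frequency stimulation of the subthalamic nucleus on the lesioned side (130 Hz, pulses of 80 µs, 60 µA). The DOPA group received L-DOPA, the dopamine precursor, at 25 mg/kg together with benserazide at 12.5 mg/kg, injected 2 times a day at intervals of 12 h over 19 days. The DOPA/HFS group received both, with stimulation over the last 5 of the 19 days. By the study's methods, the last injection came 12 h before the rats were killed, and stimulated rats were killed directly after the current was switched off. The rats of the 2 groups without stimulation carried no electrode, so that implantation and stimulation cannot be told apart. The methods name no injections for the groups without L-DOPA. The effects of L-DOPA, of benserazide and of the injections themselves therefore cannot be told apart either.

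In the ERK branch, growth factor and dopamine D1 receptor signals reach the kinases MEK1 and MEK2 (Map2k1 and Map2k2), which activate ERK1 (Mapk3) and ERK2. The parallel JNK branch, which responds to cellular stress, ends in the JNK kinases, among them JNK1 and JNK2 (Mapk8 and Mapk9). The Dusp phosphatases switch these kinases off. Several of them are themselves induced as early genes when the pathway is active, and in the dopamine-denervated striatum L-DOPA is known for activating ERK in projection neurons. The arrays measured the mRNA of these proteins, not their phosphorylation or activity.

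Promoter windows were printed for the 3 phosphatases that were measured well above background, because the largest differences from 6-OHDA were found among these inducible genes. Each window runs from 250 bases before to 50 bases after the start of the gene in RefSeq (assembly GRCr8), 5′ to 3′ along the gene's strand. Capitals mark matches on either strand to the half-site of the cAMP response element (CRE, TGACG), to the AP-1 site (TGANTCA) or to the serum response element known as the CArG box.
Dusp1: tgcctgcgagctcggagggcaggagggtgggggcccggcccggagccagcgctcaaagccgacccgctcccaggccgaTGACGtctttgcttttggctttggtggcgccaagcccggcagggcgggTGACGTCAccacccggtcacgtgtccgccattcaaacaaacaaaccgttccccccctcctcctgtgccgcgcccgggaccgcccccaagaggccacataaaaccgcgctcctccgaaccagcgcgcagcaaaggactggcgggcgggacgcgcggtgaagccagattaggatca
Dusp5: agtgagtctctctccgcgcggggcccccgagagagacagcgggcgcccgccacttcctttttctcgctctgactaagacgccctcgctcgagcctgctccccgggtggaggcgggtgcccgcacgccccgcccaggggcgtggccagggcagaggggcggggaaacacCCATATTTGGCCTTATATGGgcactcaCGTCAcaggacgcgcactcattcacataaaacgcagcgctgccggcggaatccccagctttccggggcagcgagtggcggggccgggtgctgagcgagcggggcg
Dusp6: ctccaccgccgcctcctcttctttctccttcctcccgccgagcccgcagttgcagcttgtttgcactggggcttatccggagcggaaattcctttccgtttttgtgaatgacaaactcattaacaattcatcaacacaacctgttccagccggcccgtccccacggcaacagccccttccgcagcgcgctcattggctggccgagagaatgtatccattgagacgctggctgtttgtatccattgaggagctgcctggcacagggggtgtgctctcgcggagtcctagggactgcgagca

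The Dusp1 window, at chr10:17184603-17184902 (strand +), held the palindromic CRE TGACGTCA starting 124 bases before the start site and a further half-site 172 bases before it. The whole CRE was found in 1.83% and the half-site in 21.2% of 33469 rat promoter windows of the same length. The Dusp5 window, at chr1:262543524-262543823 (strand +), held 2 adjoining CArG boxes starting 82 and 72 bases before the start site, and 1 CRE half-site 55 bases before it. A CArG box was found in 1.64% of all windows. The Dusp6 window, at chr7:35979354-35979653 (strand +), held no match to any of these motifs. An AP-1 site was found in 7.33% of all windows and in none of the 3 printed here. Windows of the kinases Map2k1, Map2k2 and Mapk8 were searched but not printed. CRE half-sites numbered 2 in Mapk8 and 1 in Map2k2, and Map2k1 held no match to these motifs. These matches are letters in a window, and binding was not measured.

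All values below are log2 signals after quantile normalization between arrays, so that a difference of 1 is a change by a factor of 2, and a level is compared only within 1 probe. A gene was represented by its brightest probe, and 20398 genes that passed a filter on low signals were tested together with limma. The call rule was a fold over 1.2 or under 0.8 together with a p under 0.1 after Benjamini-Hochberg adjustment over these genes. Of the 9 genes, 8 passed the filter. Dusp4, a nuclear phosphatase of ERK and JNK, did not: its probe was well above background on 1 of 12 arrays, in the HFS group, and its usable values of 2.86 to 4.88 overlapped in all groups. No spot of the 9 genes was saturated.

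The number of arrays and the outlier spots of 1 array limit these values. Replicates 1, 2 and 3 of each group lay on 3 slides, each with 1 array of every group at the same place, so that place on the slide and treatment cannot be told apart. DOPA/HFS replicate 3 carried 4175 spots that the scanner software had given an outlier mark, against 2 to 25 on the other arrays. The single spots of Map2k1, Dusp4 and Dusp5 were among them and were left out, so these genes had 2 DOPA/HFS arrays. Markers of striatal projection neurons were measured for 9 of 9 listed genes, with mean log2 signals of 13.78 to 14.33 over the 12 arrays. In this bulk tissue, fewer cells of a type and less RNA per cell cannot be told apart.

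None of the 8 tested genes was called in any treatment against 6-OHDA, with limma adjusted p of 0.998 or above. The share of all tested genes called was 0% for HFS, 0.0049% for DOPA and 0% for DOPA/HFS. At an unadjusted limma p under 0.05 there was 1 of 8 genes for HFS (Dusp5, higher), 0 for DOPA and 1 for DOPA/HFS (Dusp1, lower), against 2.34%, 2.58% and 2.75% of all tested genes. In DOPA/HFS against DOPA and in HFS averaged over L-DOPA, none of the 8 genes was called, as 0% of all genes, and none was under that limit with limma, against 3.78% and 4.36% of all genes. The first 3 comparisons share the 6-OHDA arrays and are therefore not independent of each other. The plot of the signal on each array shows the 9 genes in the 4 groups, and the plot of differences from 6-OHDA gives each difference with its interval.

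**Figure D1:**
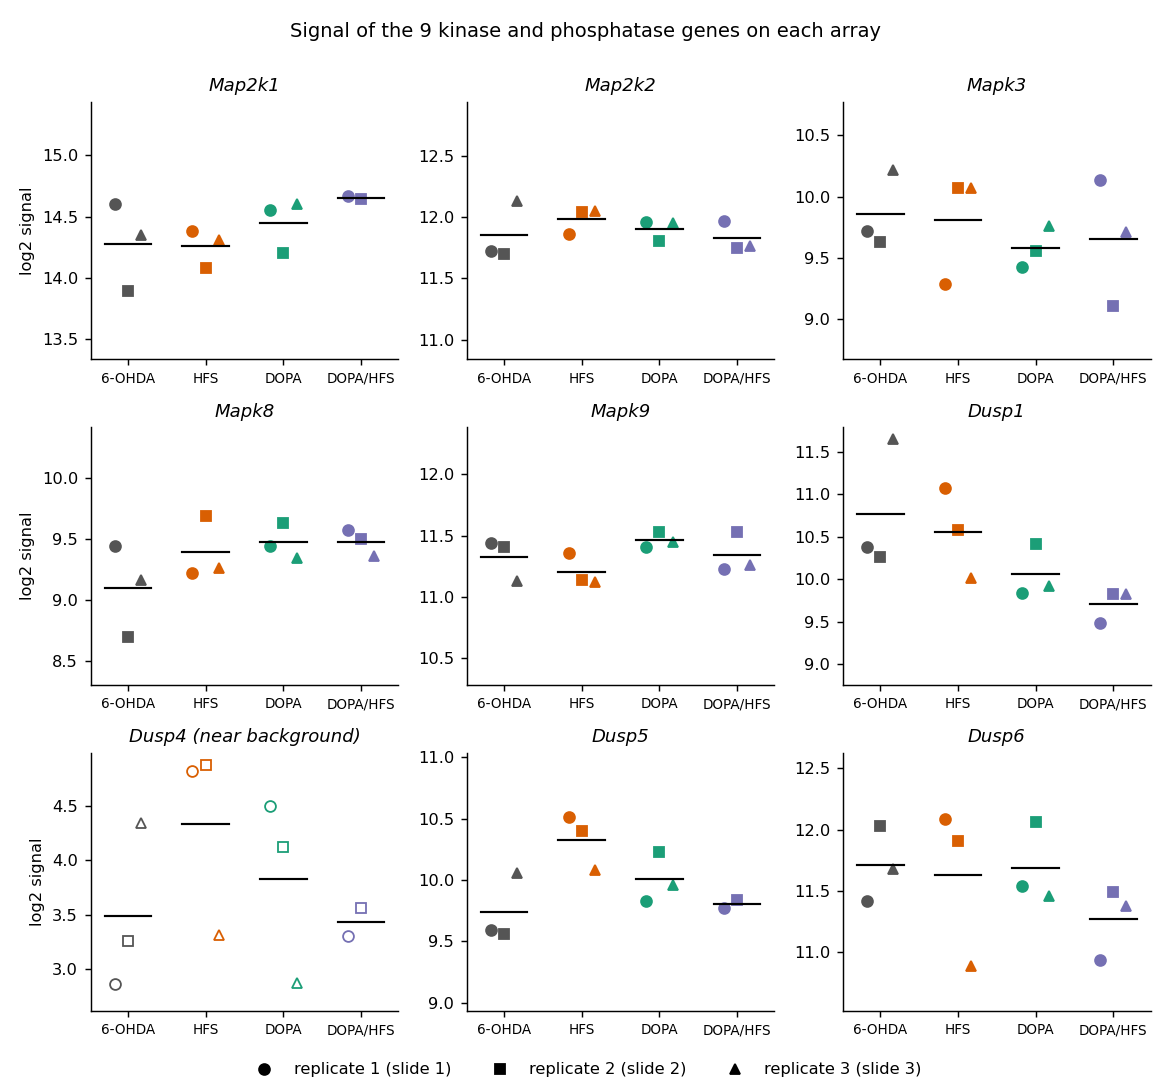
Log2 signal (vertical axis) of each gene on the 12 arrays by group (horizontal axis), with 1 point per array, the marker shape giving the replicate and slide, and a black line at the group mean. Each panel has its own vertical range. The DOPA/HFS arrays of Dusp1 lie at 9.49 to 9.83, under all other arrays, the HFS arrays of Dusp5 lie above the 6-OHDA arrays, and Dusp4 (open markers) was near background.

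**Figure D2:**
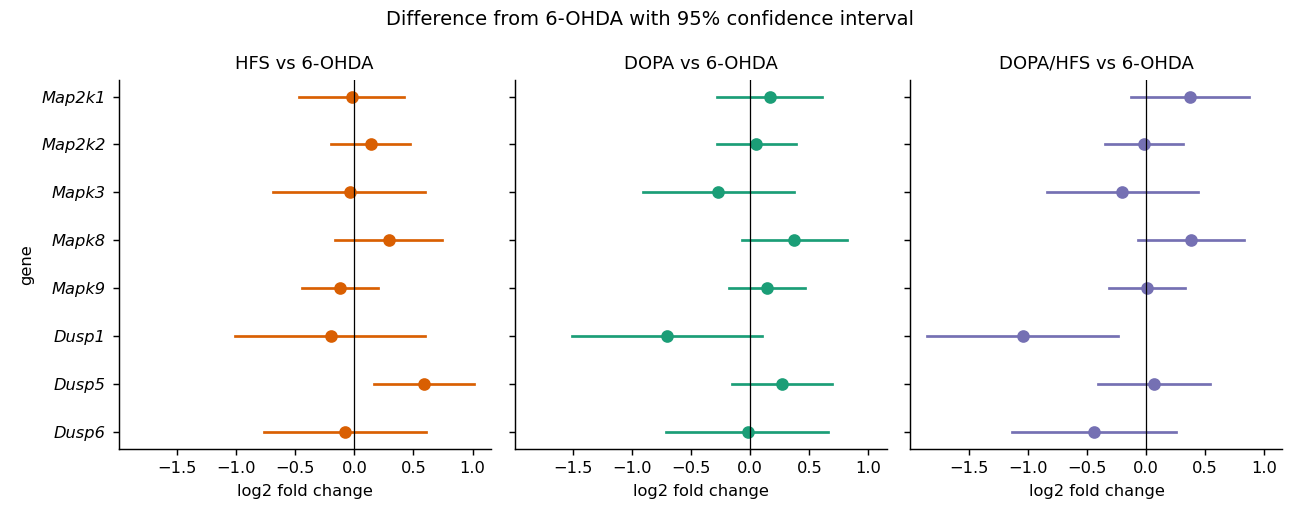
Log2 fold change of the 8 tested genes against 6-OHDA (horizontal axis, points) with the 95% confidence interval from limma (lines), for HFS, DOPA and DOPA/HFS from left to right. The intervals of Dusp5 in HFS (0.17 to 1.01) and of Dusp1 in DOPA/HFS (-1.85 to -0.24) leave out 0, and the other intervals include it.

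The kinases at the top of the ERK branch differed little. Map2k1, which encodes MEK1, had signals of 14.60, 13.89 and 14.35 in the 6-OHDA group and 14.38, 14.08 and 14.31 in the HFS group. Its signals were 14.55, 14.20 and 14.60 in the DOPA group, and 14.67 and 14.64 on the 2 usable DOPA/HFS arrays. Both DOPA/HFS arrays were above every 6-OHDA array, the nearest of which read 14.60. With the same 2 DOPA/HFS arrays, 6.66% of the 20381 genes measured on them and on the 6-OHDA arrays were higher than in 6-OHDA without overlap. The difference from 6-OHDA was 0.37 ± 0.22 (SE; 95% interval -0.13 to 0.87, limma unadjusted p = 0.128, adjusted p = 1). Without 6-OHDA replicate 2 it was 0.18 (limma unadjusted p = 0.394), and with the slide as a block it was 0.42 (limma unadjusted p = 0.0382, adjusted p = 0.971). The left-out spot of DOPA/HFS replicate 3 read 14 when it was kept, which is inside the range of the 6-OHDA arrays. Over all arrays with against all arrays without L-DOPA the difference was 0.28 ± 0.15 (limma unadjusted p = 0.0903).

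Map2k2, which encodes MEK2, spanned only 0.43 over the 12 arrays. Its signals were 11.72, 11.70 and 12.13 in the 6-OHDA group, 11.86, 12.04 and 12.05 in HFS, 11.96, 11.80 and 11.95 in DOPA, and 11.97, 11.75 and 11.76 in DOPA/HFS. All 4 groups overlapped. The differences from 6-OHDA were 0.14, 0.05 and -0.02 with a standard error of 0.15.

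Mapk3, which encodes ERK1, was measured by a probe printed at 10 spots on each array. The 6-OHDA arrays read 9.72, 9.63 and 10.22 and the HFS arrays 9.29, 10.07 and 10.07. The DOPA arrays read 9.43, 9.56 and 9.76 and the DOPA/HFS arrays 10.14, 9.11 and 9.71. The spread within groups was thus wider than the distance between the group means, which ran from 9.59 in DOPA to 9.85 in 6-OHDA. The difference of DOPA/HFS from 6-OHDA was -0.20 ± 0.29 (SE; 95% interval -0.84 to 0.44), and that of DOPA was -0.27 ± 0.29. On 11 arrays the 10 spots had an SD of 0.0554 to 0.0863, and on DOPA/HFS replicate 1 they ran from 9.21 to 10.39 with an SD of 0.336. By single spot, the difference of DOPA/HFS from 6-OHDA was -0.46 to -0.09.

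Of the JNK genes, Mapk8, which encodes JNK1, had its lowest group mean in 6-OHDA, and the size of the differences from 6-OHDA depended on single arrays of that group. Its brightest probe read 9.44, 8.70 and 9.16 in 6-OHDA, 9.22, 9.69 and 9.26 in HFS, 9.44, 9.63 and 9.34 in DOPA, and 9.57, 9.50 and 9.36 in DOPA/HFS. The differences from 6-OHDA were 0.29, 0.37 and 0.38 with a standard error of 0.20 (limma unadjusted p = 0.179, 0.0942 and 0.0881). Within slides, DOPA/HFS minus 6-OHDA was 0.13, 0.81 and 0.20. Without 6-OHDA replicate 2, the lowest array, the 3 differences were 0.09, 0.17 and 0.18 (limma unadjusted p = 0.639, 0.381 and 0.359). Without 6-OHDA replicate 1, the highest of that group, they were 0.46, 0.54 and 0.55 (limma unadjusted p = 0.0491, 0.0253 and 0.0236). The mean of the probes that passed the filter gave 0.46, 0.59 and 0.40 (limma unadjusted p = 0.0861, 0.0337 and 0.129). A dimmer Mapk8 probe, A_43_P15745, was well above background on 9 of 12 arrays and gave 0.62, 0.80 and 0.41 with a standard error of 0.37. The third, A_44_P192134, was well above background on 4 of 12 arrays and did not pass the filter.

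Mapk9, which encodes JNK2, was measured by 3 probes that were all well above background on the 12 arrays. The brightest read 11.44, 11.41 and 11.13 in 6-OHDA, 11.36, 11.14 and 11.12 in HFS, 11.41, 11.53 and 11.45 in DOPA, and 11.23, 11.53 and 11.26 in DOPA/HFS. Each treated group overlapped the 6-OHDA arrays. The differences from 6-OHDA were -0.12, 0.14 and 0.01 with a standard error of 0.15. For DOPA, the other two probes gave 0.21 ± 0.22 and 0.23 ± 0.16 (SE), the same sign as the brightest. For HFS, A_44_P451014 gave 0.08 where the brightest gave -0.12, so the direction of Mapk9 in HFS depended on the probe. For DOPA/HFS, A_44_P451014 gave 0.34 ± 0.22 (limma unadjusted p = 0.146) and A_44_P480222 gave 0.20 ± 0.16 (SE), where the brightest gave 0.01.

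Among the phosphatases, Dusp1 had the widest range of the 8 tested genes, 2.16 over the 12 arrays. Dusp1 (also MKP-1) is a nuclear phosphatase that acts on ERK, JNK and p38 and is itself an early gene. It read 10.38, 10.26 and 11.65 in the 6-OHDA group and 11.07, 10.58 and 10.02 in the HFS group. It read 9.84, 10.42 and 9.92 in the DOPA group and 9.49, 9.83 and 9.83 in the DOPA/HFS group. The order of the group means was 6-OHDA 10.76 ± 0.77, HFS 10.56 ± 0.52, DOPA 10.06 ± 0.31 and DOPA/HFS 9.72 ± 0.19 (SD, n = 3). 6-OHDA and HFS, and HFS and DOPA, differed by less than the larger of their SDs and overlapped, whereas the arrays of DOPA and DOPA/HFS did not overlap.

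Dusp1 in DOPA/HFS was 0.485 times its level in 6-OHDA, a log2 difference of -1.04 ± 0.37 (SE; 95% interval -1.85 to -0.24, limma unadjusted p = 0.0157, adjusted p = 1). No DOPA/HFS array reached a 6-OHDA array, as for 2.45% of all genes with values on the 12 arrays. An exact two-sided permutation test gave p = 0.1, the smallest that 3 against 3 arrays allow. Within slides the difference was -0.89, -0.43 and -1.82. The largest of these comes from 6-OHDA replicate 3, the brightest Dusp1 array. Without it the difference from 6-OHDA was -0.60 (limma unadjusted p = 0.0659), and that of DOPA went from -0.70 (limma unadjusted p = 0.0817) to -0.26 (limma unadjusted p = 0.399).

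Dusp1 in DOPA/HFS was also set against HFS, a comparison that shares the 3 DOPA/HFS arrays with the one above and is not independent of it. The log2 difference was -0.84 ± 0.37 (SE; limma unadjusted p = 0.0425, adjusted p = 1), with all DOPA/HFS arrays below all HFS arrays, as for 4.13% of all genes. It was -0.59 (limma unadjusted p = 0.165) without HFS replicate 1, the brightest Dusp1 array of that group, and the p was 0.0619 with the slide as a block and 0.0539 without the filter. Dusp1 and Dusp5 were the 2 of 8 genes under an unadjusted p of 0.05 in that comparison, against 2.44% of all tested genes, and neither was called, as 0% of all genes. Against DOPA, Dusp1 in DOPA/HFS differed by -0.34 ± 0.37, a difference smaller than its error although the arrays did not overlap, as for 5.66% of all genes. Over the 6 arrays with L-DOPA against the 6 without, the 6-OHDA arrays included, Dusp1 differed by -0.77 ± 0.26 (SE; limma unadjusted p = 0.0126, adjusted p = 1). It was the 1 of 8 genes under that limit, against 2.74% of all tested genes. The exact permutation test over 924 divisions of the arrays gave p = 0.0108. The differences within slides were -1.06, -0.30 and -0.96, and without 6-OHDA replicate 3 the value was -0.55 (limma unadjusted p = 0.0183).

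Arc and Fos were the 2 of all tested genes whose levels followed Dusp1 most closely over the 12 arrays, with Pearson correlations of 0.937 and 0.883. Arc encodes a cytoskeletal protein of dendrites and Fos a subunit of the AP-1 transcription factor, and both are early genes of active neurons. Fos read 8.06, 7.92 and 9.85 in 6-OHDA, 9.08, 8.43 and 8.56 in HFS, 7.17, 7.26 and 7.62 in DOPA, and 7.05, 7.20 and 6.85 in DOPA/HFS. Arc read 12.87, 12.89 and 13.93 in 6-OHDA, 13.88, 13.52 and 12.97 in HFS, 12.71, 13.27 and 12.75 in DOPA, and 12.08, 12.67 and 12.81 in DOPA/HFS. The brightest 6-OHDA array and the brightest HFS array were the same ones for the 3 genes, 6-OHDA replicate 3 and HFS replicate 1. These correlations were chosen as the largest of all genes, describe the same 12 arrays, and carry no test.

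**Figure D3:**
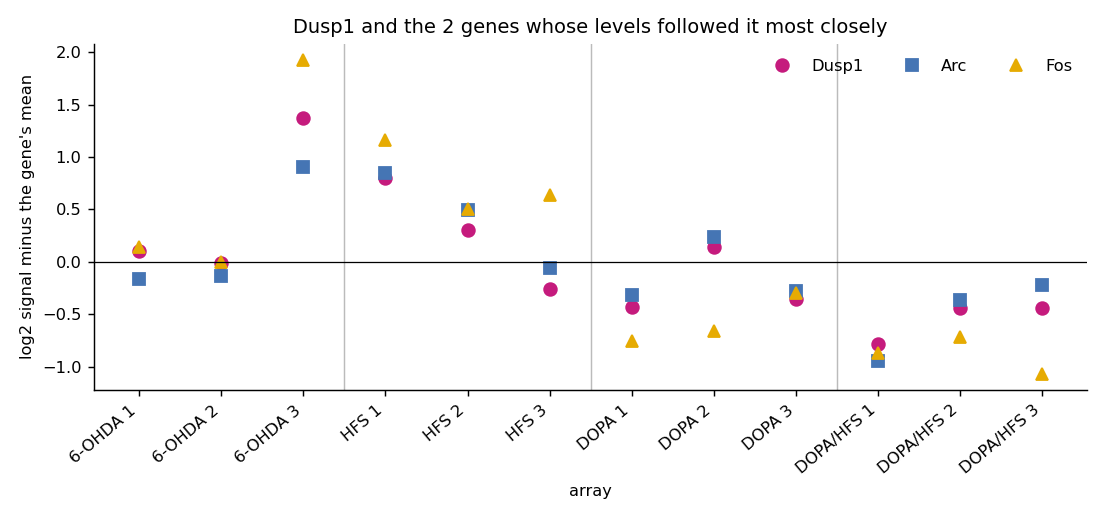
Log2 signal of Dusp1, Arc and Fos minus each gene's mean over the 12 arrays (vertical axis), for the arrays in group order (horizontal axis, grey lines between groups). The 3 genes are highest together on 6-OHDA replicate 3, and all 3 DOPA/HFS arrays lie under the mean for each gene.

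Dusp5, a nuclear phosphatase with preference for ERK, differed in the stimulated group without L-DOPA. It read 9.59, 9.56 and 10.06 in 6-OHDA and 10.51, 10.40 and 10.08 in HFS. It read 9.83, 10.23 and 9.96 in DOPA, and 9.77 and 9.84 on the 2 usable DOPA/HFS arrays. All HFS arrays were above all 6-OHDA arrays, as for 2.91% of all genes with values on the 12 arrays. Within slides the difference was 0.92, 0.84 and 0.01. The difference was 0.59 ± 0.19 (SE; 1.51-fold, 95% interval 0.17 to 1.01, limma unadjusted p = 0.011, adjusted p = 0.998), and an exact permutation test gave p = 0.1, the smallest possible. Leaving out each array in turn gave 0.50 to 0.75.

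With L-DOPA, Dusp5 was not higher under stimulation on the 2 usable arrays. The difference of DOPA/HFS from HFS was -0.52 ± 0.21 (SE; limma unadjusted p = 0.033, adjusted p = 1; -0.65 to -0.43 with arrays left out, with limma unadjusted p up to 0.116), and from 6-OHDA it was 0.07 (limma unadjusted p = 0.762). The interaction of L-DOPA and HFS, the effect of stimulation with L-DOPA minus that without, was -0.80 ± 0.28 (SE; limma unadjusted p = 0.0188, adjusted p = 1). Dusp5 was the 1 of 8 genes under an unadjusted p of 0.05 in the interaction, against 1.98% of all genes, and 0% of all genes were called. These values depended on the left-out spot of DOPA/HFS replicate 3, which read 10.68 when kept. With it, DOPA/HFS differed from HFS by -0.24 (limma unadjusted p = 0.373) and from 6-OHDA by 0.35, and the interaction was -0.51 (limma unadjusted p = 0.19).

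Markers of choroid plexus, which is not part of the striatum, were also higher on the HFS arrays. Of 7 listed markers 5 passed the filter. Their summed linear signal was 251 to 553 in 6-OHDA, 4310 to 88400 in HFS, 248 to 16300 in DOPA and 118 to 917 in DOPA/HFS. On HFS replicates 1, 2 and 3 their mean log2 signal was 11.14, 7.84 and 10.57, beside Dusp5 at 10.51, 10.40 and 10.08. Replicate 1 was thus the highest of the measured arrays for both. On DOPA replicate 3, the highest for the markers outside HFS, the mean was 9.32 and Dusp5 read 9.96. The part of these cells in the Dusp5 difference was not tested.

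Dusp6 (also MKP-3), the cytoplasmic phosphatase of ERK, overlapped between all groups. It read 11.42, 12.03 and 11.68 in 6-OHDA, 12.09, 11.91 and 10.89 in HFS, 11.54, 12.06 and 11.46 in DOPA, and 10.94, 11.49 and 11.38 in DOPA/HFS. The difference of DOPA/HFS from 6-OHDA was -0.44 ± 0.31 (SE; limma unadjusted p = 0.186). It was negative on each slide, at -0.48, -0.54 and -0.30, and was -0.27 without DOPA/HFS replicate 1. HFS and DOPA differed from 6-OHDA by -0.08 and -0.02.

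The levels of the 8 genes were also compared with each other across the arrays, each gene by its brightest probe. Of 28 pairs of genes, Mapk3 and Mapk9 were the 1 pair with a permutation p of Pearson's r under 0.1 after Benjamini-Hochberg adjustment over the pairs, and no pair passed by Spearman's rho. The brightest Mapk9 probe ran opposite to Mapk3, with Pearson's r = -0.809 (permutation p = 0.00202, adjusted p = 0.0566) and Spearman's rho = -0.692 (permutation p = 0.0152, adjusted p = 0.166) over 12 arrays. Without the 2 arrays farthest from the median of Mapk3, r was -0.711. After subtraction of the group means r was -0.885. The other Mapk9 probes were not tested against Mapk3. On DOPA/HFS replicate 1, where Mapk3 read 10.14, A_44_P451014 read 9.48, its highest value, and the brightest probe read 11.23. On DOPA/HFS replicate 2, the lowest Mapk3 array at 9.11, A_44_P480222 read its highest value, 9.16. On the first of these arrays A_44_P451014 was thus high together with Mapk3. On the second A_44_P480222 was high where Mapk3 was low, like the brightest probe. Single arrays do not settle how either probe related to Mapk3.

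Map2k2 varied with Mapk3 and against the brightest Mapk9 probe, with r of 0.672 and -0.729 (permutation p = 0.0186 and 0.0098, adjusted p = 0.174 and 0.137). The rho values were 0.655 and -0.719 (permutation p = 0.0237 and 0.0105, adjusted p = 0.166 for both). Without the 2 farthest arrays r was 0.616 and -0.673. The other Mapk9 probes were not tested against Map2k2. A_44_P451014 read its lowest value, 8.47, on 6-OHDA replicate 2, where Map2k2 was also lowest at 11.70. A_44_P480222 read its highest value, 9.16, on DOPA/HFS replicate 2, where Map2k2 read 11.75. Gga3 and Cnp were the 2 genes that followed Map2k2 most closely, with r = 0.956 and 0.950. Cnp encodes an enzyme of myelin. The mean log2 signal of 5 markers of oligodendrocytes, the cells that make myelin, was 14.45 to 15.08 on the 12 arrays. It was 15.06 or more on 6-OHDA replicate 3, HFS replicate 2 and HFS replicate 3, and these 3 arrays were also the brightest of all for Map2k2. The part of the amount of myelin in these correlations was not tested.

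**Figure D4:**
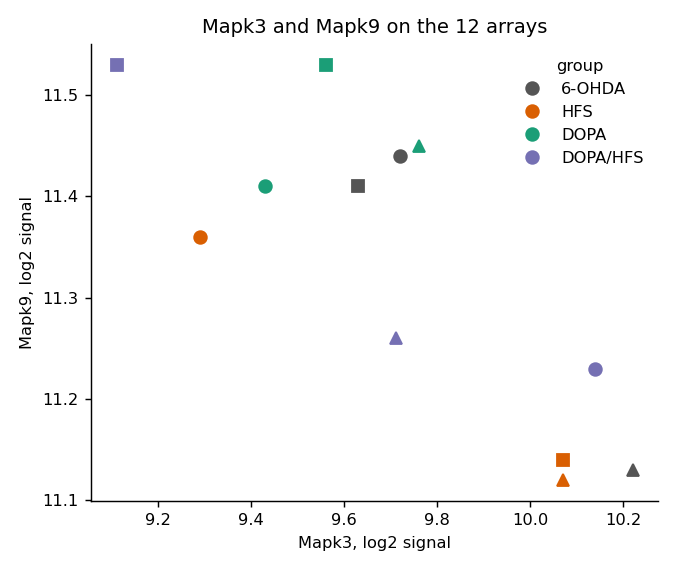
Log2 signal of Mapk3 (horizontal axis) against Mapk9 (vertical axis), with 1 point per array, colours for the groups and marker shapes for the replicates (circle 1, square 2, triangle 3). Mapk9 is shown by its brightest probe alone. Arrays with higher Mapk3 have lower signal of that probe (Pearson's r = -0.809), and the 4 groups are intermixed.

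Dusp1 and Dusp6 also varied together, with r = 0.579 and rho = 0.669 (permutation p = 0.0462 and 0.0202, adjusted p = 0.285 and 0.166). Without the 2 farthest arrays r was 0.699. For Dusp1 and Dusp5, r was 0.489 and rho 0.564 over 11 arrays (permutation p = 0.125 and 0.076, adjusted p = 0.583 and 0.304). Without the 2 farthest arrays r was 0.376, and after subtraction of the group means it was 0.965.

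Around these genes, 85 other genes of the pathways were listed and 71 passed the filter. None was called in any of the 3 comparisons with 6-OHDA. At an unadjusted limma p under 0.05 there were 2 higher and 2 lower for HFS, 5 lower for DOPA and 3 lower for DOPA/HFS. The shares of all tested genes under that limit, in either direction, were 2.34%, 2.58% and 2.75%. The lists were chosen with earlier results of these data known. The other kinases, adaptors and small GTPases of the ERK branch had medians near 0. Of 22 listed, 18 were tested, with median log2 differences from 6-OHDA of 0.05, 0.03 and -0.03 for HFS, DOPA and DOPA/HFS, and no gene under an unadjusted p of 0.05. Araf, a RAF kinase, and Hras, a small GTPase, did not overlap the 6-OHDA arrays in HFS, with log2 differences of 0.14 and -0.10 (limma unadjusted p = 0.278 and 0.419), against 2.91% of all genes higher and 2.23% lower without overlap. In the JNK branch 11 of 14 genes were tested, with medians of 0.01, 0.11 and 0.02, and in the p38 and ERK5 branches 8 of 10, with medians of 0.08, 0.03 and 0.04. Neither held a gene under an unadjusted p of 0.05. Of the other phosphatases of MAP kinases 10 of 12 were tested, with 1 gene lower in DOPA at that limit. Of the feedback inhibitors of ERK 6 of 9 were tested, with none at that limit in these comparisons. In DOPA/HFS, 2 of these 6 inhibitors were below all 6-OHDA arrays, a separation found in 2.45% of all genes.

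Early genes downstream of ERK and JNK are switched on by transcription factors of the pathways. The list of early genes used here also held such factors themselves, Elk1, Atf2 and Creb1. It had a negative median in both groups with L-DOPA and a positive one in HFS, where Dusp1 differed by -0.20. All 18 listed genes were tested. Their median log2 difference from 6-OHDA was 0.10 with HFS, -0.16 with DOPA and -0.40 with DOPA/HFS, against 0.01, -0.01 and -0.01 over all tested genes. In DOPA/HFS, 14 of 18 were lower and 7 did not overlap the 6-OHDA arrays, a separation found in 2.45% of all genes in that direction. The list was chosen with earlier results of these data known and includes genes described for the same samples before, so that it is no independent evidence of a direction.

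Among the early genes without overlap in DOPA/HFS, Fos differed by -1.58 (limma unadjusted p = 0.00326) and Btg2, an antiproliferative gene, by -1.06 (limma unadjusted p = 0.00207). Ier2 differed by -0.83 (limma unadjusted p = 0.0329), Arc by -0.71 (limma unadjusted p = 0.0564) and Egr2, a zinc finger transcription factor, by -0.61. In DOPA the values were -1.26 for Fos (limma unadjusted p = 0.0122), -1.11 for Atf3, a stress-induced transcription factor (limma unadjusted p = 0.00669), and -0.90 for Btg2 (limma unadjusted p = 0.00578). Junb and Egr4 differed by -0.63 and -0.26. In HFS, Btg2 differed by -0.73 (limma unadjusted p = 0.0177), while Etv5, a transcription factor of the ETS family, was higher by 0.42 (limma unadjusted p = 0.0188). The adjusted limma p of all these genes was 0.998 or above. As for Dusp1, these differences were smaller without 6-OHDA replicate 3, the Egr4 value aside. Without it, DOPA/HFS differed from 6-OHDA by -0.96 for Fos (limma unadjusted p = 0.00178), -0.78 for Btg2, -0.36 for Ier2 (limma unadjusted p = 0.134), -0.36 for Arc (limma unadjusted p = 0.258) and -0.43 for Egr2. DOPA then differed by -0.64 for Fos (limma unadjusted p = 0.0178), -0.90 for Atf3, -0.62 for Btg2 and -0.32 for Junb, and HFS by -0.45 for Btg2 (limma unadjusted p = 0.0828) and 0.30 for Etv5 (limma unadjusted p = 0.0833).

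Over the 6 arrays with L-DOPA against the 6 without, 9 of the 18 genes in the early gene list were lower at an unadjusted limma p under 0.05. None was higher, and 1.49% of all tested genes were lower at that limit. The 9 lower genes were Fos (-1.46), Egr2 (-1.19), Arc and Atf3 (both -0.63), Fosl2 and Btg2 (both -0.61), Junb (-0.58), Ier2 (-0.57) and Etv5 (-0.28). None was called, and the lowest adjusted p was 0.46, for Fos. The median of the list was -0.42, against -0.02 over all genes. All 6 arrays with L-DOPA were below all 6 without for Fos, a separation found in 0.049% of all genes in that direction. Leaving out each array in turn gave 6 to 11 of 18 genes. Outside the early gene list, 1 of 6 feedback inhibitors of ERK and 1 of 10 other phosphatases were also lower at an unadjusted limma p under 0.05. Of all 71 tested pathway genes, 11 were lower at that limit and 0 higher.

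**Figure D5:**
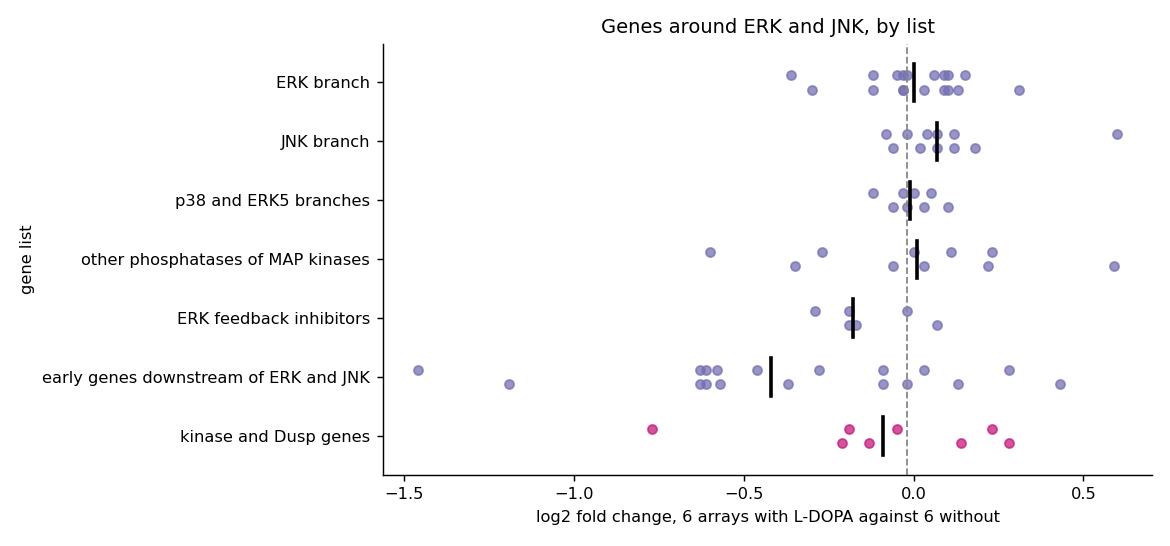
Log2 fold change of the 6 arrays with L-DOPA against the 6 without (horizontal axis), with 1 point per tested gene, grouped by list (vertical axis), a black bar at each list's median and a dashed line at the median of all tested genes (-0.02). The early gene list has a median of -0.42, and the kinase and Dusp genes a median of -0.09 with Dusp1 at -0.77.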

How the data were processed

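Striatal RNA of 12 rats had been labelled with Cy3 and hybridised to single-colour Agilent rat arrays, and 1 array per rat was used. The intensity values came from the scanner files deposited by the authors, in which Agilent Feature Extraction 9.1, named in the submitters' processing notes, had subtracted the background of each spot and corrected spatial trends. The authors also deposited a series table of log2 values that they had quantile normalized between arrays, and it served as an alternative. Precision is limited by the number of arrays, 3 per group.

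Groups and replicate numbers were taken from the sample labels. Control spots and spots marked as outliers were left out, and processed intensities were taken to log2, quantile normalized and averaged per probe. A probe had to be well above background on a share of 0.4 of the arrays or more, and the brightest stood for its gene. Of the 41012 probes, 10735 were named through RefSeq (GRCr8), and the others kept the name in the files. All arrays were fitted together with limma 3.58.1 in R 4.3.3 (lmFit, eBayes, no covariate), after a test of the fit on simulated data. Intervals are at 95%. Permutation tests were two-sided, exact between groups, and with 100000 permutations for correlations. The text names the 9 genes and up to 5 listed pathway genes per treatment with the largest difference among those without overlap. The 2 closest genes by Pearson correlation were found for each tested gene, but only those of Dusp1 and Map2k2 were described, a choice made by hand. Others with a gene name were Timm22 for Map2k1, Snapc2 for Mapk3, and Slc25a12 and Zfp94 for Mapk8. Early genes at an unadjusted limma p under 0.05 over all L-DOPA arrays were picked with their values in view.

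The genes, pathway lists and tests were chosen with earlier results of these data known. Alternatives were the 75th percentile scaling, normexp (offset 50) for the background, the deposited table, 2 other filters, other choices of probe, kept outlier spots, the slide as a block, other thresholds, only the 2 groups compared, and each array left out. Replicate numbers equalled slides in the file headers. Over all tested genes, deviations from the group means correlated at -0.288 to 0.477 for 18 pairs of arrays on 1 slide (median 0.112) and at -0.447 to 0.543 for 36 pairs on different slides (median -0.0693).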

Additional observations from a re-analysis of the deposited data

How the results depend on the processing

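None of the 8 tested genes was called under the alternatives run, in any of the 8 comparisons. The fit of only the 2 groups compared covered 5 of these comparisons, and Dusp4 was tested only without the filter, where it was not called either. Of the single differences recomputed for the named genes, 1125 kept their sign and 27 changed it. Many of these recomputations could not change a sign. Leaving out an array of a group not compared, or fitting only the 2 groups compared, left the difference itself as it was. The count is therefore no measure of stability. With the replicate block (the slide), Dusp1 in DOPA/HFS differed from 6-OHDA by -1.04 (limma unadjusted p = 0.0264) and Dusp5 in HFS by 0.59 (limma unadjusted p = 0.0214). The block changed no call, but at an unadjusted p of 0.05 it moved Map2k1 under the limit in DOPA/HFS against 6-OHDA (0.42, limma unadjusted p = 0.0382), against HFS (0.44, limma unadjusted p = 0.0303) and over all L-DOPA arrays (0.30, limma unadjusted p = 0.0306), and Dusp1 in DOPA/HFS against HFS over it (limma unadjusted p = 0.0619). Mapk9 in DOPA/HFS, at 0.01, was -0.02 with the 75th percentile, -0.11 in the deposited table and -0.09 with outlier spots kept. With the probes A_44_P451014 and A_44_P480222, Mapk9 in DOPA/HFS was 0.34 and 0.20. Mapk9 in HFS was 0.08 with the probe A_44_P451014. The causes were not tested. Leaving out each array in turn moved differences across 0 as follows. In HFS the ranges were -0.46 to 0.24 for Dusp1, -0.31 to 0.29 for Dusp6, -0.22 to 0.13 for Map2k1 and -0.18 to 0.22 for Mapk3. In DOPA they were -0.21 to 0.14 for Dusp6, -0.03 to 0.33 for Map2k1 and -0.02 to 0.19 for Map2k2. In DOPA/HFS they were -0.02 to 0.23 for Dusp5, -0.09 to 0.12 for Map2k2, -0.44 to 0.07 for Mapk3 and -0.09 to 0.07 for Mapk9. Dusp1 in DOPA/HFS stayed between -1.30 and -0.60 when arrays were left out, and its difference over all L-DOPA arrays between -0.90 and -0.55. Alternatives for the L-DOPA average, the interaction and single pathway genes were added after seeing the data. Dusp4 was too close to background for any comparison.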

Other observations

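Another 3 genes of the pathway lists had an unadjusted limma p under 0.05 against 6-OHDA and were picked after their values were seen. Fosl2, a Fos family member of AP-1, read 6.12, 5.35 and 6.83 in 6-OHDA and 7.02, 7.56 and 6.55 in HFS, a log2 difference of 0.95 ± 0.36 (SE; limma unadjusted p = 0.0251, adjusted p = 0.998). Jund, a Jun family member, read 15.93, 16.37 and 15.37 in 6-OHDA and 15.59, 15.09 and 14.92 in HFS, a difference of -0.69 ± 0.29 (limma unadjusted p = 0.0338, adjusted p = 0.998). Dusp16, a phosphatase of JNK and p38, read 4.48, 5.27 and 5.12 in 6-OHDA and 4.48, 4.17 and 2.61 in DOPA, a difference of -1.20 ± 0.50 (limma unadjusted p = 0.0357, adjusted p = 1). The Dusp16 probe was well above background on only 5 of 12 arrays, at signals like those of Dusp4. Leaving out 1 array moved each difference: Fosl2 to 0.57 (limma unadjusted p = 0.116) and Jund to -0.45 (limma unadjusted p = 0.143) without 6-OHDA replicate 2, and Dusp16 to -0.63 (limma unadjusted p = 0.171) without DOPA replicate 3. The arrays of the compared groups overlapped for each of the 3 genes.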
